A study of Mus musculus with 59 samples.

Results

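Spi1, the gene that encodes the transcription factor Pu.1, and its downstream neighbour Mybpc3 were followed through every RNA-seq library that could be assigned to a genotype. They are 2 of the 51810 genes of a gene table. The pair was chosen by name, with earlier results of these same libraries known, because Mybpc3 was high in libraries that carry the floxed Pu.1 allele. Levels of both genes, and the differences between genotypes, are therefore given as a description without a test, and tests were kept for other genes.

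Cells were sorted from the bone marrow of C57BL/6 mice of both sexes. KLS cells (lineage-negative, c-Kit-positive, Sca-1-positive) hold the stem cells and early progenitors, and granulocyte–monocyte progenitors (GMPs) are the committed myeloid cells that express CD16/32 and CD34. All mice carried 1 copy of Cre (Cre +/-). Those with a mouse line on the label carried Mx1Cre, which is switched on by interferon and hence by injection of pI:pC in haematopoietic and other interferon-responsive cells. WT mice carried the Cre too and were Daxx +/+ or, in a separate Pu.1 line, Pu.1 +/+. Daxx-KO mice were Daxx F/F, double-KO (DKO) mice were Daxx F/F Pu.1 F/F, and Pu.1-KO mice were Pu.1 F/F. Daxx encodes a chaperone of histone H3.3.

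Of the 36 libraries, 8 had the label for no time after induction (called untimed), with 2 WT and 2 Daxx-KO libraries each of KLS cells and of GMPs. At 3 weeks post induction (w.p.i.) there were 3 WT, 3 Daxx-KO and 2 DKO libraries of each cell type. The Pu.1 line, also at 3 w.p.i., gave 2 WT and 2 Pu.1-KO libraries of each cell type, and 2 WT libraries of each cell type came from 24 w.p.i. The methods of the study also describe donor cells sorted from irradiated mice that had received bone marrow. The labels do not say whether the untimed libraries are that set. Besides it, the study names RNA-seq of KLS cells and GMPs only from induced mice at 3 and 24 w.p.i. By elimination the untimed libraries would be the transplanted set, which was not checked further. Libraries whose column carries no number that belongs to a label are called a, b or c here. Depth ran from 3388906 to 29335964 reads in genes. Daxx, the check of the genotypes, was 119 to 215 normalized counts in untimed WT libraries and 22.8 to 44.6 in untimed Daxx-KO libraries. In the sets with Daxx-KO and DKO mice at 3 w.p.i. it was 423 to 688 in WT, 55.1 to 102 in Daxx-KO and 62.9 to 93.9 in DKO. In the Pu.1 line it was 625 to 920 in WT KLS cells and 295 to 478 in Pu.1-KO KLS cells. In GMPs of that line it was 787 to 788 in WT and 558 to 701 in Pu.1-KO. Both Pu.1-KO groups thus lay below WT without overlap, as held for 31.9% and 33.5% of all genes. The cause of this was not tested.

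Pu.1 belongs to the Ets family, whose members bind DNA around a GGAA core. It is required for the formation of macrophages and B cells and contributes to granulocytes, and it switches on receptors for myeloid growth factors, adhesion molecules and enzymes of the phagocyte oxidase. Mybpc3 encodes cardiac myosin-binding protein C, a protein of the thick filament of heart muscle that is best known for its mutations in hypertrophic cardiomyopathy. It has no established role in blood cells.

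On mouse build GRCm38, Spi1 (ENSMUSG00000002111.8) lies on the plus strand at chr2:91082390-91115756. Mybpc3 (ENSMUSG00000002100.15) follows on the same strand at chr2:91118144-91136516. The stretch between the genes is 2387 bases long and holds 0 annotated genes, and neither gene overlaps another. The exons of Spi1 add up to 2695 bases and those of Mybpc3 to 4163 bases. Madd comes next, with its nearer end 843 bases beyond the end of Mybpc3. The sequence before Mybpc3 is shown because it is the stretch that faces the Spi1 gene. It is taken from RefSeq (GRCm38.p6, chr2:91117894-91118113, plus strand), which had a promoter entry for 1 of the 2 genes. Capitals mark the GGAA cores.

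Mybpc3 upstream sequence: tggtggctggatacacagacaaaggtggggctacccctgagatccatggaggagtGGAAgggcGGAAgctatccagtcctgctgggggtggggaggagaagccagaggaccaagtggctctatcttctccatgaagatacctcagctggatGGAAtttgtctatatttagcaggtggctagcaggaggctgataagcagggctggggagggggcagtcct

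These 220 bases held 3 GGAA cores, counted on both strands, against a median of 2 over the first 220 bases of 32851 promoter entries. As many or more were found in 46.2% of those entries, and at least 1 in 91.1%. The longer word GAGGAA, a form found in many Pu.1 sites, was absent here and present in 20.4% of the entries. A GATAA word, the core of GATA factor sites, began at position 191, and 20.6% of the entries held one. A match to the MEF2 consensus, named for factors that act in muscle, stood at positions 161 to 170, and 2.60% of the entries held one. TATAAA was not found, against 9.95% of the entries. Positions count from 1 at the 5′ end of the printed stretch. These are matches of letters in 1 window and say nothing about which factor was bound.

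**Figure D1:**
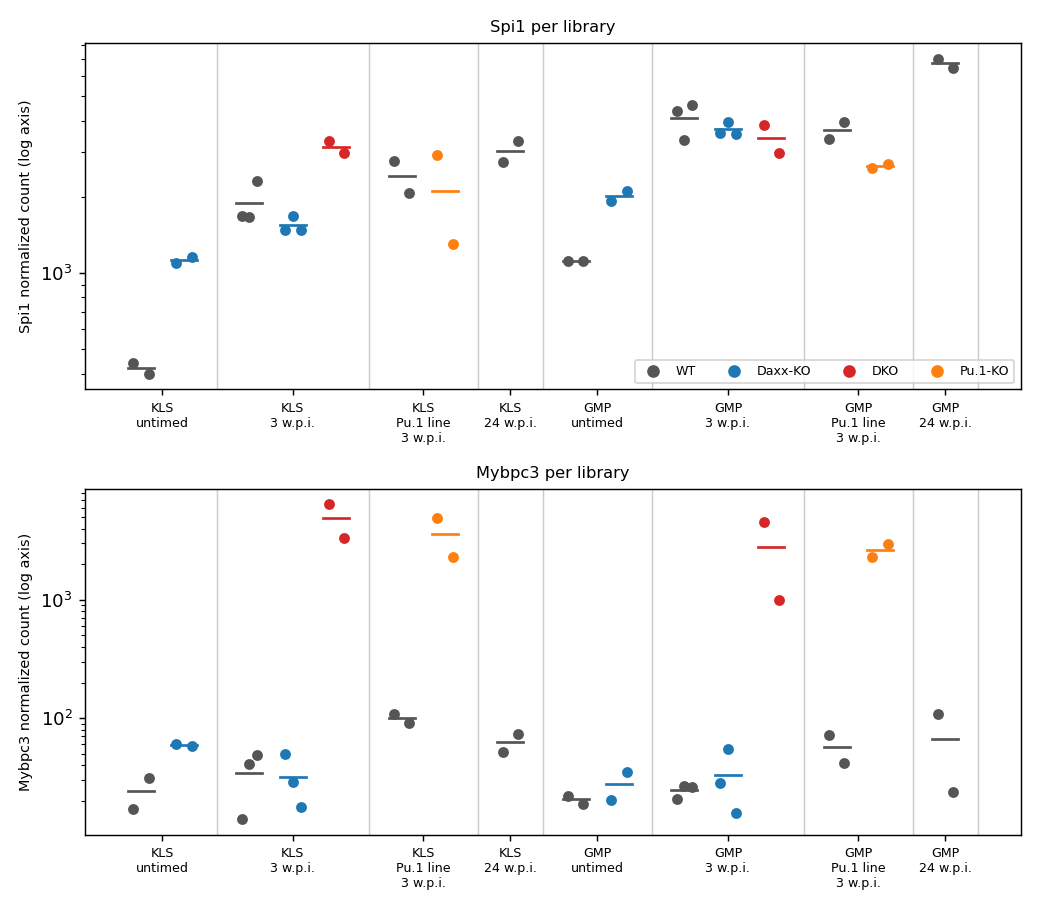
Normalized counts (log axis) of Spi1, top, and Mybpc3, bottom, in each of 36 libraries by cell type and set, with a point per library and a bar at the mean of the genotype. For Spi1 the 8 DKO and Pu.1-KO libraries lie between 1307 and 3846, within the range of the other 28, while for Mybpc3 they sit at 996 or more and the other 28 at 109 or less.

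Spi1 transcripts were counted in all libraries, including those of mice with the floxed Pu.1 allele. RPM (reads scaled to 1000000 gene reads per library) puts the separately normalized sets on a common depth scale. It does not remove differences of kit or batch between sets. Spi1 ran from 58.9 to 347 RPM (median 174) in the 28 libraries with intact Pu.1. In the 8 libraries with Pu.1 F/F it ran from 118 to 306 (median 220). These ranges overlapped. The tables count whole genes, so they do not show which exons the reads came from, and the exons that are floxed in the Pu.1 F/F allele are not given in the sources used here. A reading of Spi1 in these libraries therefore does not measure how much of the allele was deleted or how much Pu.1 protein remained.

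Mybpc3 separated by the Pu.1 allele. In the 28 libraries with intact Pu.1 it had 10 to 192 reads (median 32), or 1.06 to 8.67 RPM (median 3.04). In the 8 libraries with Pu.1 F/F it had 1010 to 6709 reads, or 77.8 to 424 RPM (median 237). The lowest Pu.1 F/F library lay 8.98-fold above the highest intact library in RPM and 9.13-fold above it in normalized counts. No library of either kind crossed into the range of the other. As the genes were picked for this pattern, the gap is a description.

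In KLS cells at 3 w.p.i., Mybpc3 was 14.05, 40.6 and 49.0 normalized counts in the WT libraries. It was 49.8, 28.7 and 17.8 in the Daxx-KO libraries, which lay among the WT values. In the DKO libraries it was 6428 and 3333. The DKO mean was 4880 ± 2189 (SD, n = 2) against 34.6 ± 18.3 in WT (SD, n = 3), which is 141-fold, and against 32.1 ± 16.3 in Daxx-KO (SD, n = 3), which is 152-fold. On the log2(value + 1) scale the differences were 7.20 and 7.25, the 18th and 12th highest of 15200 genes. WT and Daxx-KO libraries serve in both differences with the same DKO libraries, so these are not independent. Groups that did not overlap with the DKO libraries higher were found for 26% of all genes against WT and for 22.3% against Daxx-KO.

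Spi1 in the same KLS cells was 1676, 1669 and 2320.0 in WT, 1484, 1679 and 1482 in Daxx-KO and 3330.4 and 2993 in DKO. The DKO libraries were the highest of the set, with a mean of 3162 ± 238 (SD, n = 2) against 1888 ± 374 (SD, n = 3) in WT, or 1.67-fold. Against 1549 ± 113 (SD, n = 3) in Daxx-KO the DKO mean was 2.04-fold. In this set the level of Spi1 transcripts was thus higher in KLS libraries with the floxed allele than in those without. The GMP markers (Mpo, Elane, Ctsg, Prtn3, Fcgr3 and Cebpe) summed to 105628 to 109326 in these DKO libraries. Their sum was 4671 to 42831 in WT and 3559 to 12573 in Daxx-KO. Mpo and Elane were the largest members in DKO. Fcgr3 overlapped between DKO and WT, at 375 and 383 against 269, 129 and 623. The part of these markers in the Spi1 values was not tested, and more Spi1 per cell cannot be told apart from more cells of a Spi1-rich type. The Daxx-KO mean was 82.0% of WT, with libraries that overlapped in normalized counts and lay below WT, without overlap, in RPM (115 to 122 against 126 to 175). Groups that did not overlap with Daxx-KO lower made up 9.16% of all genes in normalized counts, and Spi1 was not among those. The share in RPM was not counted.

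In GMPs at 3 w.p.i., Mybpc3 was 20.8, 26.5 and 26.1 in WT, 28.3, 55.1 and 15.8 in Daxx-KO and 4579 and 996 in DKO. The DKO libraries differed from each other more than any other pair, so the mean of 2787 carried an SD of 2533 (n = 2). That mean was 114-fold the WT mean of 24.5 ± 3.19 (SD, n = 3) and 84.2-fold the Daxx-KO mean of 33.1 ± 20.1 (SD, n = 3). The lower DKO library by itself was 37.6-fold above the highest WT library. The differences of 6.40 and 6.14 on the log2 scale ranked 3rd and 5th of 13714 genes. Not overlapping with DKO higher held for 10.1% of all genes against WT and 10.7% against Daxx-KO. Spi1 itself was 4384, 3348 and 4604 in WT, 3589.9, 3958.5 and 3532 in Daxx-KO and 3846 and 2989 in DKO. All 3 genotypes overlapped, and the DKO mean was 83.1% of WT, unlike the higher DKO values in KLS cells.

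In the Pu.1 line, whose sample titles name no Daxx allele, Mybpc3 was again high with Pu.1 F/F. In KLS cells it was 108 and 91.1 in WT and 4894 and 2292 in Pu.1-KO, a 36.01-fold difference of the means and 5.06 on the log2 scale, the 16th of 23459 genes. In GMPs it was 72.0 and 41.8 in WT and 2317 and 2945 in Pu.1-KO, a 46.3-fold difference and 5.55 on the log2 scale, the 3rd of 19337. WT libraries of this line read more Mybpc3 than those of the other lines at 3 w.p.i., 2.99 to 5.65 against 1.06 to 3.69 RPM. Line and set coincide here, so they cannot be told apart. Not overlapping with Pu.1-KO higher held for 33.7% of genes in KLS cells and 31.5% in GMPs.

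Spi1 in the Pu.1 line was 2764 and 2080.1 in WT KLS cells and 2920.5 and 1307 in Pu.1-KO KLS cells. The groups overlapped, and the direction of the means depended on the scale, at 87.3% of WT in normalized counts and 116% in RPM. In GMPs Spi1 was 3395 and 3934 in WT and 2589 and 2707 in Pu.1-KO. Both Pu.1-KO values lay below both WT values, at a mean of 72.3% of WT in normalized counts and 85.6% in RPM. Not overlapping with Pu.1-KO lower held for 33.5% of genes in these GMPs.

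With Daxx deleted alone, Spi1 was higher in the untimed Daxx-KO libraries of both cell types and Mybpc3 in those of KLS cells. In untimed KLS cells Spi1 was 439 and 399.6 in WT and 1093 and 1155 in Daxx-KO, 2.68-fold by the means. Mybpc3 was 17.2 and 31.0 in WT and 60.2 and 58.2 in Daxx-KO, 2.46-fold by the means, though it rested on 10 and 18 reads in WT. Neither gene overlapped between the genotypes, as held for 32.9% of all genes with Daxx-KO higher. In untimed GMPs Spi1 was 1117 and 1112 in WT and 1930.2 and 2114 in Daxx-KO, 1.81-fold, without overlap, as for 33.1% of genes with Daxx-KO higher. Mybpc3 was 22.1 and 19.0 in WT and 20.3 and 35.1 in Daxx-KO, which overlapped.

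The 6 KLS markers were all above 10 normalized counts in the untimed Daxx-KO KLS libraries, but not at WT levels. Ly6a, which encodes the Sca-1 that defines the sort, was higher, at 474 and 485 in Daxx-KO against 136 and 114 in WT, and at most 10.1 in untimed GMPs. The other 5 (Kit, Mecom, Hlf, Procr and Cd34) were lower in both Daxx-KO libraries than in both WT libraries. Mecom, a factor of stem cells, was 11791 and 11284 in WT and at most 39.4 in Daxx-KO, and the sum of the 6 was 24925 to 25013 in WT and 4833 to 5151 in Daxx-KO. The same sum was 4504 to 4757 in untimed GMPs. The sum of 6 GMP markers was 686 to 1297 in WT KLS cells and 11280 to 14766 in Daxx-KO KLS cells. Of these GMP markers Fcgr3 overlapped and the others were higher in Daxx-KO. In untimed GMPs the sum of 6 genes of mature neutrophils (Ltf, Camp, Ngp, S100a8, S100a9 and Retnlg) was 34032 to 49080 in Daxx-KO and 4531 to 6167 in WT, without overlap. The sum followed S100a8, S100a9 and Ngp, which were higher in both Daxx-KO libraries. Camp was lower, at 68.9 and 91.4 in Daxx-KO against 116 and 171 in WT. Retnlg was lower too, and Ltf overlapped. The part of these markers in the Spi1 and Mybpc3 values was not tested, and in bulk samples more Spi1 per cell and more cells of a Spi1-rich type cannot be told apart.

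At 24 w.p.i. the WT libraries alone were used, and their columns were assigned by a control ending. The labels also list Daxx-KO and DKO libraries of both cell types at that time, which were not analysed here because no label matched their columns. Spi1 was 2734 and 3311 normalized counts in KLS cells and 7009 and 6463 in GMPs, and Mybpc3 was 51.5 and 73.2 in KLS cells and 109 and 23.8 in GMPs. In RPM, Spi1 was highest in WT GMPs at 3 w.p.i. (318 ± 36.4, SD, n = 3) and lowest in untimed WT KLS cells (62.5 ± 5.12, SD, n = 2). The 7 lowest of the 16 groups were KLS cells, from 62.5 to 163, and their neighbours overlapped except between the lowest group and the next one, the KLS cells without Daxx at 3 w.p.i. (118 ± 3.68, SD, n = 3). KLS cells of DKO mice stood above untimed WT GMPs, at 220 ± 0.304 (SD, n = 2) against 174 ± 0.164 (SD, n = 2). From Pu.1-line WT GMPs (268 ± 18.8, SD, n = 2) upward, neighbouring groups overlapped. Kit and batch may differ between sets, so orders across sets, here and for Mybpc3 below, do not separate them from genotype or cell type.

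For Mybpc3, the 12 groups with intact Pu.1 ranged in their means from 1.91 to 8.57 RPM, and neighbours overlapped up to WT KLS cells of the Pu.1 line at 5.53 ± 0.178 (SD, n = 2). Untimed Daxx-KO KLS cells stood above those at 8.57 ± 0.136 (SD, n = 2). The 4 groups with Pu.1 F/F followed at 221 ± 203 in DKO GMPs, 226 ± 4.002 in Pu.1-KO GMPs, 264 ± 80.3 in Pu.1-KO KLS cells and 334 ± 127 in DKO KLS cells (SD, n = 2 each), and their neighbours overlapped. KLS cells and GMPs with Pu.1 F/F were thus not separated in the level of Mybpc3.

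**Figure D2:**
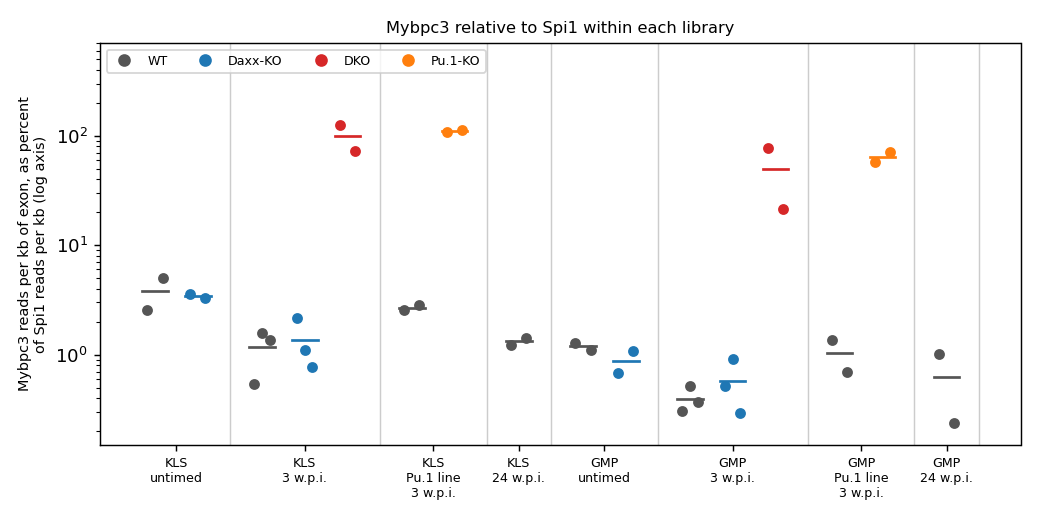
Mybpc3 reads per kilobase of exon as a percent of Spi1 reads per kilobase in the same library (log axis), with a point per library and a bar at the mean of the genotype. The 8 libraries of DKO and Pu.1-KO mice lie at 21.6% or more, and the 28 others at 5.02% or less.

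To compare the genes with each other, reads were divided by exon length within each library, which also cancels the scaling of the table. With intact Pu.1, Mybpc3 per kilobase was 0.239% to 5.02% of Spi1 (median 1.11%, n = 28). With Pu.1 F/F it was 21.6% to 125% (median 74.6%, n = 8), so that in some libraries Mybpc3 was as abundant per length as Spi1. In KLS cells with Pu.1 F/F the ratio was 125% and 72.1% in DKO and 108% and 114% in Pu.1-KO. In GMPs it was 77.1% and 21.6% in DKO and 57.9% and 70.4% in Pu.1-KO.

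KLS and GMP libraries of the same animal could be set side by side in the Pu.1 F/F mice. The KLS ratio was the higher one in all 4 animals, at 125% against 77.1% and 72.1% against 21.6% in the DKO mice and 108% against 57.9% and 114% against 70.4% in the Pu.1-KO mice. The DKO animal with less Mybpc3 in KLS cells also had less in GMPs. In the Pu.1-KO animals the order turned, with 4894 and 2292 in KLS cells and 2317 and 2945 in GMPs. With intact Pu.1 the median ratio was likewise higher in KLS cells (1.87%) than in GMPs (0.684%), where Spi1 is more abundant.

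**Figure D3:**
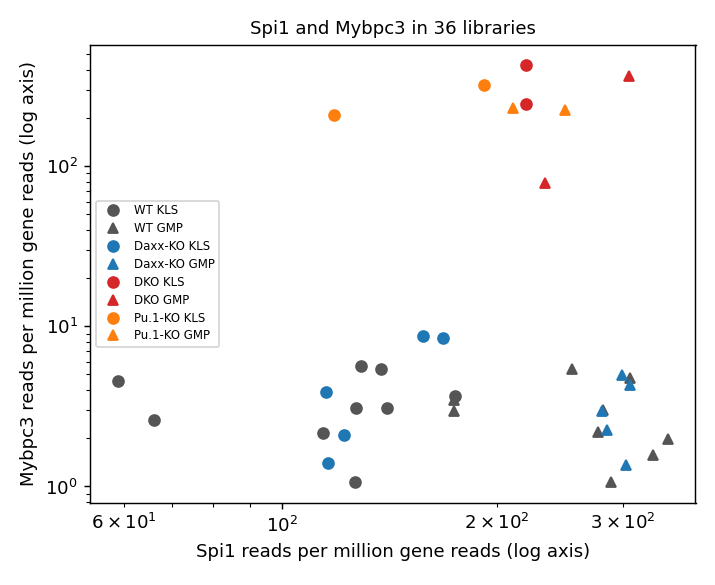
Mybpc3 against Spi1 in RPM (both axes log) in 36 libraries, with circles for KLS cells, triangles for GMPs and colours for genotype. The DKO and Pu.1-KO points form a band between 77.8 and 424 on the Mybpc3 axis, above all other points, at Spi1 levels that the others share.

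Within libraries of like allele the genes were only loosely related. Over the 28 libraries with intact Pu.1, with log2 values centred on the mean of each table, Pearson's r between Spi1 and Mybpc3 was 0.47 and Spearman's rank correlation 0.45. Without the libraries farthest from the median of Spi1, both untimed KLS libraries, r was 0.45 and the rank correlation 0.41 (n = 26). The points share a table's scaling and often an animal, and the low Mybpc3 counts carry counting error, so no p is given. Among Pu.1 F/F libraries the one with more Spi1 in a table also had more Mybpc3 in 4 of 4 tables by normalized counts. By RPM the order turned in the GMPs of the Pu.1 line, with Spi1 at 249 and 210 and Mybpc3 at 223 and 229.

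**Figure D4:**
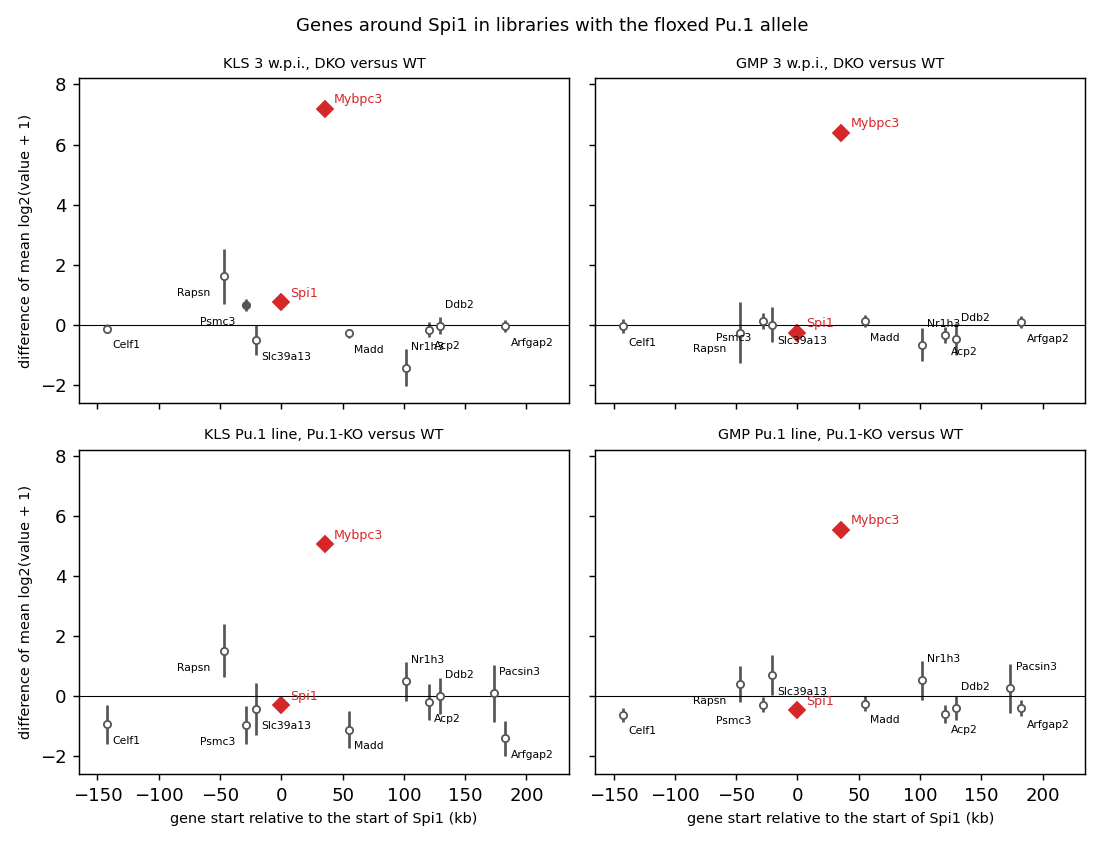
Difference of mean log2(value + 1) against the distance of each gene's start from the start of Spi1 in kilobases, in the 4 comparisons of Pu.1 F/F with WT mice. Circles are neighbouring genes with the standard error from limma (filled where called), and red diamonds are Spi1 and Mybpc3, plotted without error or test. Mybpc3 lies at 5.06 or more in each panel and the neighbours between -1.43 and 1.62.

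The other genes around Spi1 stayed far below the differences of Mybpc3. A list of 10 genes, from Celf1, whose start lies at -142.008 kilobases from that of Spi1, to Arfgap2 at 182.584 kilobases, gave 38 tested differences in the 4 comparisons of Pu.1 F/F with WT. They ran from -1.43 (Nr1h3, a nuclear receptor for oxysterols) to 1.62 (Rapsn, which clusters acetylcholine receptors), both in KLS cells of DKO mice. Ddb2, a factor of DNA repair, lay between -0.47 and 0.02, Acp2 between -0.58 and -0.16, Arfgap2 between -1.40 and 0.10, and Pacsin3, too low to be tested at 3 w.p.i., at 0.11 and 0.27 in the Pu.1 line. By limma with Benjamini-Hochberg adjustment 1 of the 38 was called. This was Psmc3, a subunit of the proteasome that overlaps Slc39a13, at 1958 ± 249 in DKO KLS cells (SD, n = 2) and 1246 ± 90.7 in WT (SD, n = 3), a log2 difference of 0.65 (SE 0.19, adjusted p = 0.046), where 17.6% of all genes were called. This call was lost in 6 of the 13 other settings, 4 of which left out a WT or DKO library, with an adjusted p of up to 0.29.

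Madd, the gene on the far side of Mybpc3, was 1896 ± 45.3 in DKO KLS cells (SD, n = 2) against 2331 ± 320 in WT (SD, n = 3), a log2 difference of -0.29 (adjusted p = 0.20). In DKO GMPs its difference was 0.12, and in the Pu.1 line it was -1.10 in KLS cells and -0.24 in GMPs, none of them called. Slc39a13, a zinc transporter whose start is the nearest before Spi1, was below 62 normalized counts on average in these groups and was not called in any. Celf1, an RNA-binding protein, was 1465 ± 125 in Pu.1-KO GMPs against 2236 ± 206 in WT (SD, n = 2 each), a log2 difference of -0.61 (adjusted p = 0.054). It passed with TMM scaling, edgeR and DESeq2 and without either Pu.1-KO library, and its highest adjusted p in any setting was 0.72. In the same cells the background was 17.6% of genes called.

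With Daxx deleted alone, 2 of 8 tested neighbours were called in untimed GMPs, where 33% of all genes were. Psmc3 fell (-0.37, adjusted p = 0.040) and Acp2, a lysosomal acid phosphatase, rose by 0.73 (adjusted p = 0.013). Neither call held without each library in turn, and that of Psmc3 was lost in 6 of the 11 other settings. In untimed KLS cells limma called 0 of 8, and 2 had an unadjusted p under 0.05, as had 35.7% of all genes. At 3 w.p.i. 0 of 9 were called in Daxx-KO against WT in each cell type, where 0.257% of all genes in KLS cells and 0.0948% in GMPs were called. In each cell type 1 had an unadjusted p under 0.05, as had 11.7% and 3.16% of all genes.

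Mybpc3 is a gene of the sarcomere, so 12 other sarcomere genes of heart muscle were counted. At 3 w.p.i. Tnnc1 and Actc1, the cardiac troponin C and cardiac actin genes, were at 0 in all DKO and WT libraries of both cell types. Myh6, the main myosin heavy chain of the adult mouse heart, was 2.41 ± 2.05 in DKO KLS cells (SD, n = 2) and 0 in DKO GMPs. The fitted members were Ttn and Tnni3 in KLS cells and Ttn in GMPs, and limma called 0 of them. Ttn, the giant elastic protein titin, was 87.9 ± 34.3 in DKO KLS cells and 59.7 ± 28.7 in WT (adjusted p = 0.43).

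In the Pu.1 line sarcomere genes were read at higher levels in both genotypes. More genes of any kind were detected in this line, 24539 to 30291 above 0 per library against 17066 to 22416 in the other libraries. Within the line, Pu.1-KO libraries had more such genes than WT libraries of the same cell type. The part of this in the sarcomere values was not tested. Of 9 tested in KLS cells limma called 0, with 3 at an unadjusted p under 0.05 and a median difference of 1.07 where the median of all genes was 0.12 and 0.81% of genes were called. In GMPs 2 of 8 were called, where 17.6% of all genes were, Ttn at 261 ± 53.8 in Pu.1-KO and 100.05 ± 38.1 in WT (1.41, adjusted p = 0.0011) and Tnnt2, cardiac troponin T, at 58.3 ± 9.53 and 12.9 ± 14.6 (2.65, adjusted p = 0.0058; SD, n = 2 each). Neither call held without each library in turn. Tnnc1 and Actc1 were again at 0 in every library, and the closest relatives of Mybpc3 were not called, with Mybpc1 at 122 ± 43.6 against 60.3 ± 1.49 and Mybpc2 at 48.1 ± 15.9 against 15.0 ± 2.74 in GMPs. All of these levels lay below the 2317 and 2945 of Mybpc3.

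The genes that followed Mybpc3 most closely over 36 libraries, by Pearson's r of table-centred log2 values among 11643 genes, were Farp1 (0.93), Ecm1 (0.91), Abtb1 (0.90), Dsp (0.87) and Dock9 (0.87). None lies on chromosome 2. Dsp, the desmosomal protein desmoplakin, was 2669 to 5772 in DKO KLS cells and 91.8 to 171 in WT. In the Pu.1 line Dsp was 1863 to 1965 in Pu.1-KO GMPs and 261 to 378 in WT. Farp1 was 942 to 961 in DKO KLS cells and 214 to 237 in WT. These values follow from the choice of genes by likeness and describe the same split by Pu.1 allele.

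For Spi1 the closest genes were Mapre2 (0.95), Sun2 (0.92), Gpr160 (0.91), Arel1 (0.91) and Alas1 (0.91), and Mybpc3 came in place 5688 with 0.22. Alas1, the enzyme that starts haem synthesis in most tissues, was 825 to 3221 in WT and 5273 to 6658 in DKO KLS cells at 3 w.p.i. Sun2, a protein of the nuclear envelope, was 2597 to 4471 and 7177 to 10192 in the same groups. None of the 5 genes nearest to Mybpc3 was among the 5 nearest to Spi1.

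**Figure D5:**
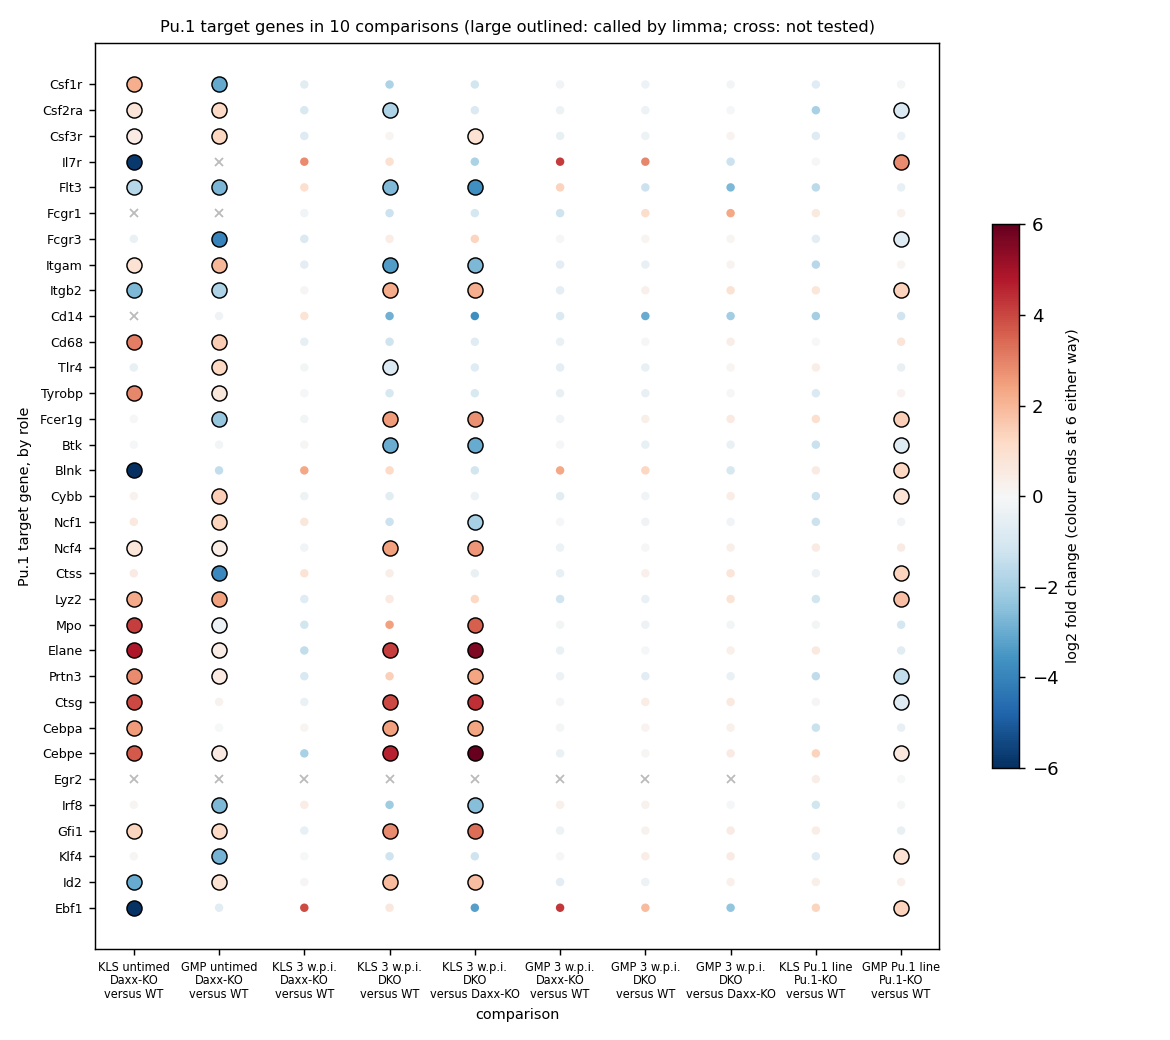
Log2 fold changes of 33 of the 34 Pu.1 target genes (vertical axis, by role) in 10 comparisons (horizontal axis), with colour for the size (red higher, blue lower in the first-named genotype), large outlined points for calls by limma and crosses for genes not tested. The outlined points are 14 and 17 in KLS cells of DKO mice and 0 in the 3 columns of GMPs at 3 w.p.i.

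Genes that Pu.1 is known to regulate were counted next. Spi1 and Mybpc3 were not picked by the values of these genes, but the list was drawn up with earlier results of these data known. The list holds 34 genes for receptors, signalling adaptors, oxidase subunits, granule and lysosome proteins and transcription factors. In KLS cells at 3 w.p.i., 10 of 33 tested rose and 5 fell in DKO against WT by limma with Benjamini-Hochberg adjustment, or 45.5%, where 17.6% of all 15200 genes were called. The median difference was 0.44, against -0.00031 over all genes. The count was 7 without the DKO 1 library.

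Among receptors, Flt3, the receptor of the cytokine Flt3 ligand on early lymphoid and dendritic progenitors, fell to 526 ± 204 in DKO KLS cells from 3225 ± 544 in WT (-2.66, SE 0.25, adjusted p = 0.00031). Itgam, the integrin chain CD11b of myeloid cells, fell to 137 ± 56.3 from 1537 ± 958 (-3.35, adjusted p = 0.0015). Csf2ra, a chain of the GM-CSF receptor (-1.86, adjusted p = 0.0090), and Tlr4, the receptor of lipopolysaccharide (-0.92, adjusted p = 0.029), fell too. Itgb2, the integrin chain CD18 that pairs with CD11b, went the other way and rose by 2.24 (adjusted p = 0.0097).

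Among signalling genes, Btk, a kinase of the B-cell receptor pathway, fell to 170 ± 62.5 from 1287 ± 151 (-2.96, SE 0.23, adjusted p = 0.00018), and Fcer1g, the signalling chain of Fc receptors, rose to 1547 ± 420 from 267 ± 81.9 (2.56, adjusted p = 0.0024). Ncf4, a subunit of the oxidase, rose by 2.45 (adjusted p = 0.0022). Of the granule genes, Elane, neutrophil elastase, rose by 4.13 (adjusted p = 0.015) and Ctsg, cathepsin G, by 3.95 (adjusted p = 0.010). The factors of granulocytes Cebpa (2.48, adjusted p = 0.0020), Cebpe (4.60, adjusted p = 0.013) and Gfi1 (2.83, adjusted p = 0.00094) rose as well. The calls for Flt3, Itgam, Fcer1g, Btk, Ncf4, Cebpa and Gfi1, 7 of the 15, held without each library in turn.

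Against Daxx-KO the DKO KLS libraries, the same ones as above, showed 13 of 33 targets higher and 5 lower (54.5%), where 15.4% of all genes were called. The count was 8 without DKO 1. Flt3 fell from 6535 ± 1095 (-3.68, adjusted p = 8.9e-05), and so did Btk (-3.02, adjusted p = 1.0e-04). Itgam (-2.71, adjusted p = 0.0034) and Irf8, a factor of monocytes (-2.58, adjusted p = 0.030), fell too. Ctsg rose by 4.37 (adjusted p = 0.0061), Mpo, the myeloperoxidase of granules, by 3.61 (adjusted p = 0.016), Gfi1 by 3.35 (adjusted p = 0.00036), Elane by 5.58 (adjusted p = 0.0032) and Cebpe by 6.54 (adjusted p = 0.0022). Csf3r, the receptor of G-CSF, rose by 0.90 (adjusted p = 0.0037). The median over the 33 was -0.43, below 0 although more members rose than fell.

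Markers of other cells moved with these counts. The sum of the 6 genes of mature neutrophils was 133097 to 164400 normalized counts in DKO KLS cells, with all 6 above 10 in each library, against 489 to 26357 in WT and 868 to 5808 in Daxx-KO. Most of the DKO sum was Ngp, at 140992 and 100171. Ltf and S100a9 overlapped between DKO and WT, with Ltf at 190 and 440 in DKO. The sum of the 6 KLS markers was 21917 to 27054 in DKO and 45405 to 65077 in WT, though Ly6a and Procr overlapped. The 6 GMP markers summed to 105628 to 109326 in DKO and 4671 to 42831 in WT, though Fcgr3 overlapped. The part of all these markers in the target counts was not tested. In GMPs at 3 w.p.i. the neutrophil sum was 107372 to 155490 in DKO and 52581 to 280845 in WT, which overlapped.

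Daxx-KO against WT gave 0 of 33 called targets in KLS cells at 3 w.p.i. by limma, where 0.257% of all genes were called. An unadjusted p under 0.05 was found for 6, as for 11.7% of all genes, and DESeq2 called 4. Ebf1, a factor of B cells, had a difference of 3.93 (adjusted p = 0.18) and Il7r, the interleukin-7 receptor, 2.84 (adjusted p = 0.18). The sum of 6 B-lineage markers was 495 to 9092 in these Daxx-KO libraries and 238 to 408 in WT, and its part in those values was not tested. Of these markers Cd79a, Cd79b and Vpreb1 overlapped between the genotypes.

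In GMPs at 3 w.p.i. 0 of 33 targets were called by limma in each comparison, although Mybpc3 was high in the DKO libraries. For Daxx-KO against WT limma called 0.0948% of all genes, DESeq2 called 1 of the targets, and 7 had an unadjusted p under 0.05, as had 3.16% of all genes. For DKO against WT limma called 0.292% of all genes, DESeq2 called 2 targets, and 3 had such a p against 7.01% of all genes. For DKO against Daxx-KO limma called 0.0583%, DESeq2 2 targets, and 5 had such a p against 8.05% of all genes. The largest DKO difference from WT at an unadjusted p under 0.05 was that of Cd14, the co-receptor of lipopolysaccharide, at -3.01 (9.41 against 66.7 normalized counts, adjusted p = 0.20).

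In KLS cells of the Pu.1 line 0 of 34 targets were called by limma, where 0.81% of all genes were called. With TMM scaling 1 was called, by edgeR 2 and by DESeq2 2, and 9 had an unadjusted p under 0.05, as had 25.9% of all genes. The median was -0.48 against 0.12 over all genes. The lowest adjusted p among them was that of Csf2ra, at 173 against 579 normalized counts (-1.95, adjusted p = 0.059). Without the Pu.1-KO a library 13 were called and without Pu.1-KO b 1. The 2 Pu.1-KO KLS libraries stood apart in KLS markers, at 10681 and 24907 against 39525 to 47337 in WT, and in the neutrophil sum, at 57389 to 117931 against 22273 to 40166. Of the neutrophil genes, Ltf was lower in both Pu.1-KO libraries than in WT, and S100a9 and Retnlg overlapped.

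In GMPs of the Pu.1 line 10 of 34 targets rose and 5 fell, where 17.6% of all genes were called. The median was -0.05 against -0.0023 over all genes. Lyz2, lysozyme, rose to 14145 ± 1266 from 4074 ± 34.8 (1.79, adjusted p = 3.3e-09), Fcer1g by 1.49 (adjusted p = 7.4e-08), Itgb2 by 1.40 (adjusted p = 2.9e-06), Ctss, cathepsin S, by 1.37 (adjusted p = 3.1e-06) and Il7r by 2.81 (adjusted p = 0.00067). Prtn3, proteinase 3 of granules (-1.46, adjusted p = 5.5e-05), Csf2ra (-0.88, adjusted p = 0.0043), Btk (-0.77, adjusted p = 0.015), Fcgr3, an Fc receptor (-0.76, adjusted p = 0.014), and Ctsg (-0.78, adjusted p = 0.043) fell. The counts rested on single libraries, at 2 without WT a, 1 without WT b and 23 without Pu.1-KO b, and Il7r was the 1 call that held without each library in turn. The neutrophil sum was 152350 to 155701 in Pu.1-KO GMPs and 27683 to 34313 in WT. The B-lineage sum was 1034 to 1591 in Pu.1-KO and 464 to 468 in WT, and the GMP sum 104106 to 185258 and 259226 to 282874. Not every member followed its sum. Among GMP markers Cebpe was higher in Pu.1-KO, at 1231 and 1444 against 858 and 836. Among B-lineage markers Vpreb1 was lower, at 10.8 and 7.71 against 14.8 and 15.7, and Cd79b overlapped. The part of these markers was not tested.

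In the untimed libraries, where Spi1 was higher in Daxx-KO, 16 of 31 tested targets rose and 6 fell in KLS cells, where 23.1% of all genes were called. The median was 0.56 against 0.03. Elane rose by 4.84 (adjusted p = 0.0051), Ctsg by 3.96 (adjusted p = 4.9e-05) and Cebpe by 3.66 from 1.72 normalized counts in WT (adjusted p = 0.031). Mpo rose to 7490 ± 1213 from 432 ± 146 (4.15, SE 0.21, adjusted p = 7.0e-06) and Tyrobp, an adaptor of myeloid receptors, by 2.94 (adjusted p = 2.6e-05). Blnk, an adaptor of B-cell signalling (-7.17, adjusted p = 0.00015), and Il7r (-5.80, adjusted p = 0.00013) fell to 1.51 ± 2.14 and 2.00 ± 0.261 normalized counts. Ebf1 fell by 5.92 on the log2 scale (adjusted p = 6.1e-05) and Id2, an inhibitor of E proteins, by 3.03 (adjusted p = 0.0011). The count was 4 without Daxx-KO 2 and 8 without Daxx-KO 1, and Mpo, Tyrobp, Blnk and Il7r held without each library in turn. In these Daxx-KO libraries 5 of the 6 KLS markers were lower than in WT and Ly6a was higher, and the B-lineage sum was 128 to 157 against 295 to 296. The part of these markers was not tested.

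In untimed GMPs 16 of 31 rose and 9 fell, where 33% of all genes were called, and 20 of the 25 held without each library in turn. Lyz2 rose by 2.45 on the log2 scale (adjusted p = 3.8e-05), Itgam by 1.97 (adjusted p = 2.5e-05), Cd68, a lysosomal protein of macrophages, by 1.53 (adjusted p = 0.0011) and Cybb, the catalytic subunit of the oxidase, by 1.47 (adjusted p = 8.3e-05). Among those that fell were Fcgr3 (-4.004, adjusted p = 0.00049), Ctss (-3.87, adjusted p = 0.00024), Csf1r, the receptor of M-CSF (-3.06, adjusted p = 3.3e-05), and the monocyte factors Klf4 (-2.82, adjusted p = 0.00011) and Irf8 (-2.71, adjusted p = 3.4e-05). Targets thus moved both ways while Spi1 was 1.81-fold. The part of the neutrophil sum, which did not overlap between these genotypes, was not tested.

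Factors that act on Spi1 were counted from a list of 12. In KLS cells at 3 w.p.i. 0 rose and 4 fell in DKO against WT, Gata1 (-2.04, adjusted p = 0.0097), Gata2 (-1.65, adjusted p = 0.0032), Tal1 (-0.87, adjusted p = 0.0090) and Elf1 (-0.51, adjusted p = 0.026), where 17.6% of all genes were called. Gata1 and Gata2 are the factors of erythroid cells and early progenitors that oppose Pu.1. Gata2 was the 1 call that held without each library in turn. It also fell in Pu.1-KO KLS cells, to 524 ± 275 from 2273 ± 444 (SD, n = 2 each, -2.21, adjusted p = 0.038), the 1 call of 12 there, against 0.81% of all genes, which was lost without single libraries. In Pu.1-KO GMPs 4 of 12 fell, Gfi1b (-1.25, adjusted p = 0.011), Tal1 (-1.22, adjusted p = 0.00040), Myb (-0.98, adjusted p = 0.0041) and Elf1 (-0.68, adjusted p = 0.036), where 17.6% of all genes were called, and 0 of these 4 calls held without each library in turn.

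Of 10 other Ets genes, Ets1, a factor of lymphoid cells, rose in DKO KLS cells to 6821 ± 2497 from 984 ± 341 (2.80, adjusted p = 0.0037) and Elk3 fell (-0.99, adjusted p = 0.014). In Pu.1-KO GMPs Spib, the closest relative of Spi1, rose to 159 ± 49.4 from 38.5 ± 8.34 (2.00, adjusted p = 0.00026) and Ets1 by 1.10 (adjusted p = 0.00019), while Etv6 fell (-0.85, adjusted p = 0.035). The share of all genes called was 17.6% in both comparisons. None of these calls held without each library in turn. In DKO GMPs Spib was 36.5 ± 46.0 (SD, n = 2) against 8.38 ± 12.7 in WT (SD, n = 3), which did not pass (adjusted p = 0.99), and in Pu.1-KO KLS cells it was 180 ± 73.2 against 162 ± 16.5 (SD, n = 2 each, adjusted p = 0.92).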

How the data were processed

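RNA from KLS cells and GMPs was sequenced by the authors. The submitters' processing notes name CASAVA 1.8.4, cutadapt 1.13, STAR 2.5.3 and DESeq2 1.16.1, build mm10 and GENCODE M14. The labels name the NuGEN Ovation SoLo kit and the methods of the study also another kit, so the kit of each library is not settled. The counter and its use of strand are not given in the sources used here, so values of overlapping genes are uncertain. The signal values, as deposited by the authors, are read counts per gene divided by a size factor per library, in tables normalized separately. Each column came out as whole reads for 100% of its values within 0.01, which gave the depth, the RPM values and the counts for edgeR and DESeq2.

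Labels gave the groups of the untimed libraries and of the numbered KLS libraries at 3 w.p.i. GMP columns at 3 w.p.i. were assigned by animal numbers that labels of KLS samples give. Columns of the Pu.1 line and of WT at 24 w.p.i. carry numbers that no label gives. They were assigned by the treatment or control ending of the same columns in the deposited counts of repeat elements. The number of 1 WT animal at 3 w.p.i. is on no label either. Its KLS column was assigned by such a control ending and its GMP column by the same number. Of 111 columns of values, 36 were used and 75 were not used here. The labels also list libraries of long-term stem cells (WT, Daxx +/F and Daxx-KO) and of multipotent progenitors (WT and Daxx-KO). These were not analysed here because no label matched their columns. Tests were made within a table with limma 3.58.1 (R 4.3.3) and its mean-variance trend, on log2(value + 1) and for genes whose mean was 10 or more, with all libraries of the table in 1 fit for 10 comparisons. A gene was called at a Benjamini-Hochberg adjusted p under 0.05. Because of the added 1, folds of low genes are too small on this scale. The methods of the study call the replicates biological, and p-values measure the spread between them. Libraries of KLS cells and GMPs from 1 animal share that animal.

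Alternatives were TMM scaling, edgeR 4.0.16, DESeq2 1.42.0, no filter, a pseudocount of 5, the compared groups alone, each library left out and a replicate block. Gene positions and exon lengths came from GENCODE M21 on GRCm38, the same build as mm10, and sequence from RefSeq. The values of 1 member of the target list are not reported here, while counts over that list include it. The genes and lists were chosen with earlier results of these data known. From the target list, any called member may be named, with at least the 4 largest rises and falls, and from the neighbourhood every member. From the other lists up to 4 called members with the largest changes are named, with others named after their values were seen. Likeness was the Pearson r over all libraries among genes with a mean of 10 or more in every table.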

Additional observations from a re-analysis of the deposited data

Results flagged for a closer look

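In 13 cases a listed gene called in at least 1 cell type moved one way in every KLS library and the opposite way in every GMP library of the same contrast. The share of all genes with such opposite groups was not counted. In the untimed set, groups did not overlap for 32.9% (Daxx-KO higher) and 29.8% (lower) of all genes in KLS cells. In untimed GMPs it was 33.1% and 34.1%. For DKO against Daxx-KO it was 22.3% lower in KLS cells and 10.7% higher in GMPs, and for Pu.1-KO against WT 31.9% and 31.5%. The difference between the cell types was not tested, and values are log2 differences in KLS cells and then in GMPs. In the untimed set, for Daxx-KO against WT, these were Csf1r (2.16 and -3.06), Mpo (4.15 and -0.36), Id2 (-3.03 and 0.87), Ets1 (-1.02 and 0.59), Gata2 (0.33 and -1.81), Irf8 (0.12 and -2.71), Ctss (0.49 and -3.87), Tlr4 (-0.48 and 1.22) and Ets2 (-0.46 and 1.22). Around Spi1 the same held for Psmc3 (0.39 and -0.37) and Acp2 (-0.44 and 0.73). At 3 w.p.i. it held for Gata2 in DKO against Daxx-KO (-1.20 and 1.64), and in the Pu.1 line for Cybb in Pu.1-KO against WT (-1.31 and 0.80). Neither Spi1 nor Mybpc3 was among them.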

How the results depend on the processing

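Differences of Spi1 and Mybpc3 and their ratios moved by less than 1 SD of the replicates in the settings that kept all libraries. With 2 or 3 libraries a left-out one must move a mean by less than 1 SD, so that says nothing on stability. Leaving out each library in turn moved the Mybpc3 difference of DKO against WT from 6.67 to 7.67 in KLS cells and from 5.30 to 7.50 in GMPs, and that of Pu.1-KO against WT from 4.51 to 5.61 and from 5.16 to 5.93. The Spi1 difference in Pu.1-KO KLS cells ran from -0.87 to 0.28, and the Mybpc3 to Spi1 ratio of normalized counts in DKO GMPs from 33.3% to 119%. Counts of called target genes were less steady. Left-out libraries gave 4 to 24 in untimed KLS cells (22 with all), 7 to 17 for DKO against WT (15) and 8 to 18 for DKO against Daxx-KO (18) in KLS cells, 0 to 13 in Pu.1-KO KLS cells (0) and 1 to 23 in Pu.1-KO GMPs (15). Where 1 library of a genotype was left, it was assumed to vary like the other groups. DESeq2 gave 4 for Daxx-KO against WT in KLS cells at 3 w.p.i., 1, 2 and 2 in the GMPs for Daxx-KO against WT, DKO against WT and DKO against Daxx-KO, and 2 in Pu.1-KO KLS cells, where edgeR gave 2 and TMM scaling 1, each against 0. The compared groups alone gave 2 for Daxx-KO against WT in KLS cells at 3 w.p.i. The replicate block gave 1 there, 19 and 18 for DKO against WT and against Daxx-KO, 22 in untimed KLS cells and 23 in untimed GMPs. Same-numbered samples correlated by -0.22 to 0.07 after each genotype was centred on its mean. With 2 libraries per genotype, as in the untimed sets, both pairs must give the same value. These correlations therefore cannot show whether the numbers paired the samples. In the other tables the columns carry no numbers. Chosen after seeing the data, the crossed pairing of the untimed GMPs gave 25, and the numbered KLS libraries without the block gave 0, 17 and 20. The cause of these changes was not tested. Mybpc3 rested on as few as 10 reads with intact Pu.1, which limits its folds.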
